A study of Drosophila melanogaster with 3 samples.

Results

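The genes described here encode the nuclear pore and the carriers that move through it, measured in adult nephrocytes of control flies. A gene belonged to this group if its FlyBase symbol began with Nup and a digit (21 genes) or if it was 1 of 13 further genes, namely *Gp210*, *Ndc1*, *Aladin*, *Elys*, *Rae1*, *Mtor*, *mbo*, *Ran*, *emb*, *Fs(2)Ket*, *Pen*, *Kap-alpha1* and *Kap-alpha3*. This gave 34 of the 17768 genes in the deposited tables. *Mtor* (Megator) is listed under the symbol *Mgtor*, and *Pen* was found through its transcript because its gene ID has since changed.

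Nephrocytes are the filtering cells along the fly heart and serve as a model of the kidney podocyte. The 3 libraries, labelled replicates 1 to 3, are of 1 condition: 4-day-old control females on a diet with 6% sucrose, all of which carried *Hand*-GFP, marking heart cells and nephrocytes, together with *Klf15*-Gal4 and UAS-RFP over the CyO balancer, marking nephrocytes. Each library was made from pooled flies, from which large cells with both GFP and RFP were sorted. RNA was amplified as cDNA with a low-input kit, and with 1 condition the questions were how abundant each gene was, how parts of the pore compared, and how far libraries differed.

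Expected counts, the reads per gene estimated by RSEM, summed to 8801238, 7808930 and 8797916 in libraries 1, 2 and 3. The pore and transport genes held 19756, 17788 and 21982 of them. All 8 nephrocyte marker genes were detected, and so were 12 of 13 muscle and heart genes, 3 of 8 hemocyte genes, 2 of 10 ovary and germline genes (*grk* and *aub*), 1 of 7 testis genes and 0 of 8 fat body genes. The summed muscle and heart level was 8314, 3868 and 12973 TPM in libraries 1, 2 and 3, with *fln* at 0 counts in each. *Act57B* held 2477, 813 and 3347 TPM of it and *Act87E* 274, 71.2 and 366 TPM. The study counts both among the actin genes expressed in nephrocytes. *Mlc2* and *Mlc1* came next after *Act57B*, at means of 1230 and 1154 TPM. For hemocyte genes the sum ran from 388 to 564 TPM, mostly *crq* (401, 327 and 327 TPM) and *srp* (150, 55.5 and 158 TPM). *He* was at 11.6, 4.31 and 4.03 TPM and *NimC1* at 17, 11 and 11 counts. *eater* and *lz* had 0 counts, and *Hml* and *Pxn* no more than 1 count in each library. Ovary and germline genes summed to between 189 and 220.3 TPM, with *nos*, *bcd* and *Cp36* at 0 counts, and fat body genes to at most 4.99 TPM. Pore genes are used by every nucleated cell, and the part of other cells in their levels was not tested.

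The nuclear pore is a channel through the double membrane of the nucleus. Its scaffold consists of an outer ring, built from the Y-shaped Nup107-160 complex, and an inner ring around the channel. Nucleoporins rich in phenylalanine and glycine repeats fill the channel, and further proteins form the cytoplasmic face, the nuclear basket and the membrane anchor. Importins and exportins carry cargo through it, with a direction set by the GTPase Ran. In people, inherited variants of several scaffold nucleoporins, NUP93, NUP205, NUP107, NUP133, NUP160 and NUP85 (the counterpart of fly *Nup75*) among them, cause steroid-resistant nephrotic syndrome, a disease of the podocyte.

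In adult nephrocytes, 33 of the 34 genes were detected, meaning at 1 TPM or more in every library. The share was 97.1%, against 40.5% of all genes measured. TPM scales transcripts to a total of 1000000 and is corrected for transcript length, so that levels of different genes can be compared. The exception was *Pen*, at 0 counts in all 3 libraries. At 5 TPM or more in every library there were 22 pore and transport genes (64.7%) against 31.5% of all genes, and at 10 TPM or more 14 (41.2%) against 25.4%. Most nucleoporins were of low abundance. Their 28 genes had a median of 8.64 TPM (means over 3 libraries), where the 7193 detected genes had a median of 20.9 TPM. A mean of 100 TPM or more was reached by 3 of the 33 detected genes, *Nup93-1*, *Kap-alpha3* and *Ran*, against 16.7% of all detected genes. By structural group the medians were 10.5 TPM for the outer ring, 6.30 for the inner ring, 6.86 for the channel, 9.98 for the cytoplasmic face, 6.57 for the basket and 9.48 for membrane genes, each below that of all detected genes, although in CPM (counts scaled to depth with no correction for length) the basket and membrane medians lay slightly above it. In bulk RNA fewer expressing cells cannot be told apart from less RNA per cell.

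**Figure D1:**
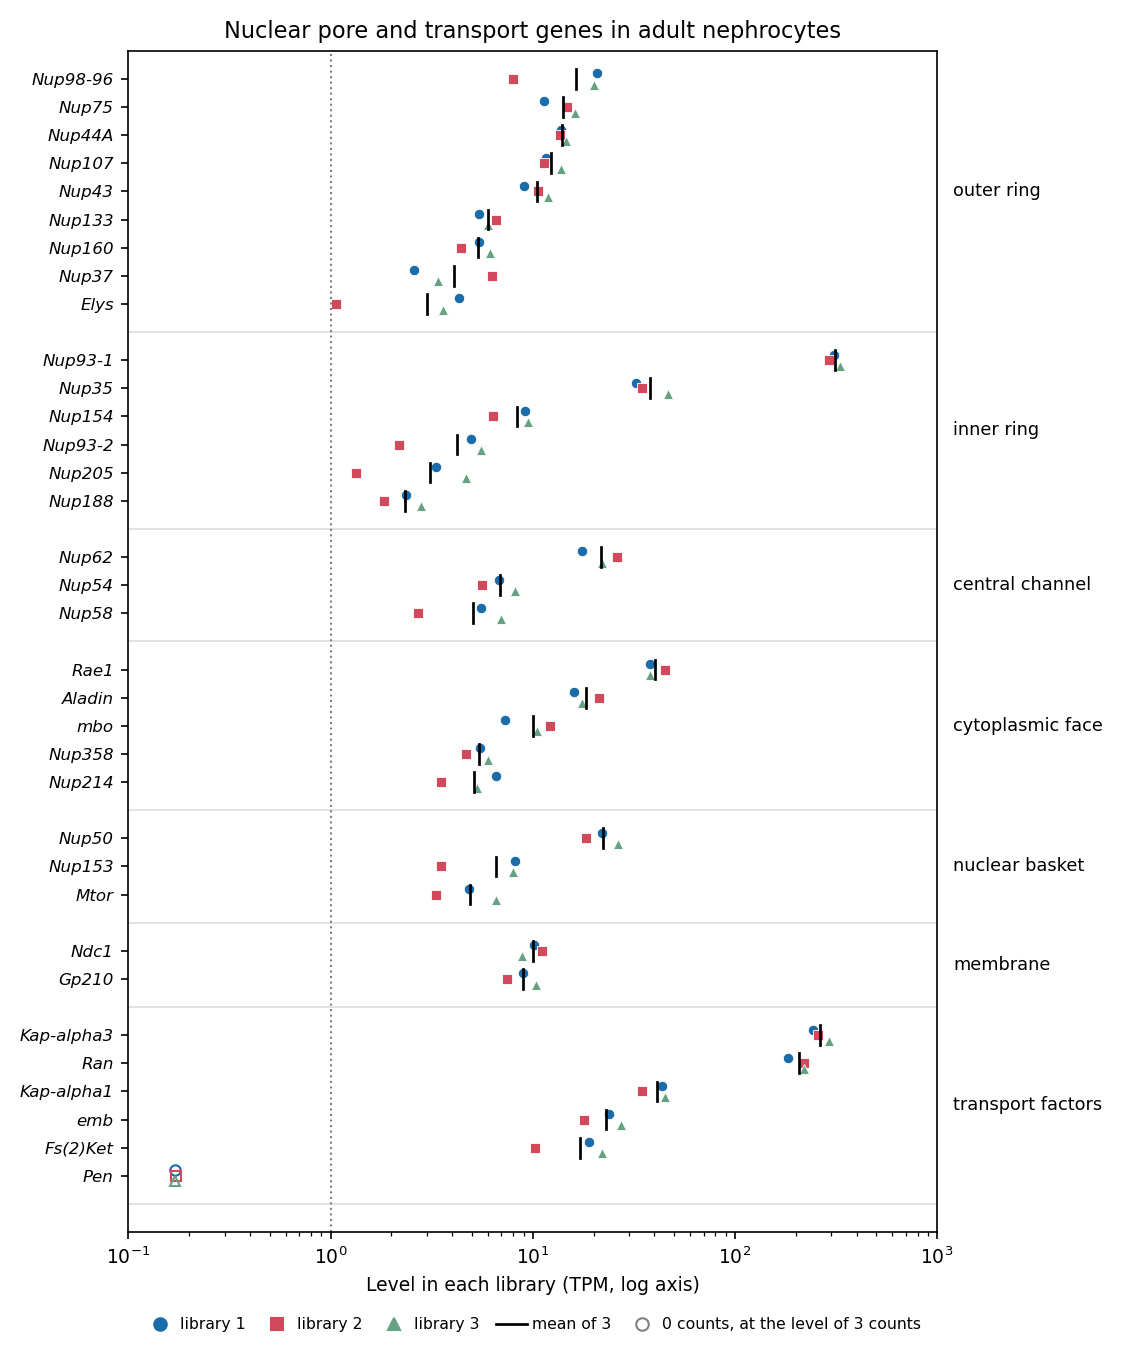
Level of each of the 34 nuclear pore and transport genes in TPM (log axis) in libraries 1, 2 and 3 (points), with the mean of 3 as a black bar and the detection threshold of 1 TPM as a dotted line. *Nup93-1*, *Kap-alpha3* and *Ran* lie above 100 TPM, most other genes between 2 and 50 TPM, and *Pen*, with 0 counts, is drawn as open symbols at the level that 3 counts would give (0.17 TPM).

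*Nup93-1* stood far above the other nucleoporins. *Nup93-1* (FBgn0027537, chromosome X from 13822826 to 13825910 in BDGP6, 1 transcript) encodes an inner ring scaffold protein that links the ring to the channel nucleoporins. It was at 310.1, 292 and 332 TPM in libraries 1, 2 and 3, a mean of 311 ± 19.8 TPM (SD, n = 3), resting on 5973, 5577 and 6356 counts. The 3 values lay close together, with a coefficient of variation of 6.36%, and the gene ranked 473rd by mean TPM among all 17768 and 230th by CPM. The other 27 nucleoporins had a median of 8.21, 6.59 and 8.80 TPM in libraries 1, 2 and 3, so *Nup93-1* exceeded it 37.8-fold, 44.3-fold and 37.7-fold. The next nucleoporin was *Rae1* in libraries 1 and 2 and *Nup35* in library 3, exceeded 8.20-fold, 6.47-fold and 7.13-fold. *Nup93-1* alone made up 50.4 ± 0.99% of the summed TPM of the 28 nucleoporins (SD, n = 3). These ratios were computed after its level had been seen. No exon of *Nup93-1* overlaps another gene, and its counts were whole numbers within 0.005 in all 3 libraries.

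Its paralog *Nup93-2* (FBgn0038274, chromosome 3R from 14895703 to 14898372) was low, at 4.97, 2.19 and 5.57 TPM. Libraries 1 and 3 were alike and library 2 was lower, on 84.9, 37.0 and 94.7 counts. Within each library *Nup93-1* exceeded *Nup93-2* by 62.4-fold, 133-fold and 59.6-fold (mean log2 ratio 6.31 ± 0.65, SD, n = 3). The ratio was many times its spread and was 5.93 without replicate 2. Over a stretch of 688 exon bases, 27.6% of its own, *Nup93-2* overlaps *CG14860* on the opposite strand, which was at 0.11 TPM.

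The other inner ring genes ranged widely. *Nup35*, a membrane-binding inner ring nucleoporin, was at 32.3, 34.6 and 46.5 TPM, highest in library 3. Of its exon bases 7.53% lie opposite *Hou*, a gene at 114.7 TPM. *Nup154* was at 8.35 ± 1.74 TPM (SD, n = 3). The large scaffold proteins *Nup205* and *Nup188* had the lowest levels of this ring. *Nup205* was at 3.32, 1.34 and 4.67 TPM and *Nup188* at 2.36, 1.83 and 2.80 TPM, both lowest in library 2. Their order was not settled, since *Nup188* was below *Nup205* in libraries 1 and 3 and above it in library 2 (log2 ratio -0.26 ± 0.63, SD, n = 3, exact permutation p = 0.5, adjusted p = 0.545), and the ratio was -0.62 without replicate 2.

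All 9 outer ring genes were detected, with a median of 10.5 TPM. Their means ran from 2.98 TPM for *Elys* to 16.3 TPM for *Nup98-96*. *Nup107*, which gives the Y complex its name, was at 11.6, 11.3 and 13.8 TPM, and its partner *Nup133* at 5.40, 6.59 and 6.03 TPM. *Nup133* was below *Nup107* in every library, and the spread of each gene was small beside the gap (log2 ratio -1.03 ± 0.22, SD, n = 3). *Nup44A*, the fly Seh1 protein, was the steadiest of all members at 13.8, 13.6 and 14.6 TPM, with an SD of log2(TPM + 1) of 0.052, at percentile 3.04 of all detected genes. *Nup75*, *Nup43* and *Nup160* had means of 14.1, 10.5 and 5.34 TPM.

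*Nup98-96* is transcribed as 1 message for a precursor that is cut into an FG-repeat nucleoporin and a member of the Y complex. It was at 20.7, 7.98 and 20.2 TPM, with library 2 well below the others. *Elys*, which brings the Y complex to chromatin when pores form after mitosis, was at 4.31, 1.06 and 3.58 TPM, and library 2 was again the lowest, on 50 counts against 206 and 173. *Nup37*, a small peripheral Y protein, went the other way at 2.60, 6.31 and 3.39 TPM. Its counts were only 17, 41 and 22, with exact 95% Poisson intervals of 9.90 to 27.2, 29.4 to 55.6 and 13.8 to 33.3, so library 2 lay outside the interval of library 1 and the intervals of libraries 2 and 3 met. Such intervals cover counting error only, because reads of amplified cDNA are not independent molecules. *Sec13*, a further Y complex protein that also coats vesicles leaving the endoplasmic reticulum and whose symbol lies outside the Nup rule, was at 97.9, 119 and 140 TPM, above every outer ring gene in each library.

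The 3 channel genes encode proteins that bind one another and carry FG repeats. *Nup62* was at 17.5, 26.0 and 21.9 TPM, *Nup54* at 6.80, 5.61 and 8.16 TPM and *Nup58* at 5.52, 2.7 and 6.99 TPM. In each library *Nup62* was the higher of these, exceeding *Nup54* 2.57-fold, 4.63-fold and 2.69-fold. *Nup58* was below *Nup54* in every library, by a log2 ratio of -0.53 ± 0.46 (SD, n = 3), about its spread.

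On the cytoplasmic face, *Rae1*, an mRNA export factor that binds Nup98, led with 37.8, 45.1 and 38.1 TPM. *Aladin*, the counterpart of the human protein lost in triple A syndrome, was at 15.9, 21.2 and 17.6 TPM. Of its exon bases 17.8% lie opposite *c11.1*, a gene at 176 TPM. In all, 13 members share 8 to 1077 exon bases with a gene on the opposite strand, among them the 5 members whose counts were not all whole (*Aladin*, *Nup160*, *Nup154*, *Nup54* and *Nup93-2*). The strand setting is not known, so reads from such stretches cannot be assigned to either gene and these levels are less certain. *mbo*, the fly Nup88, was at 7.27, 12.2 and 10.5 TPM and its partner *Nup214* at 6.56, 3.51 and 5.29 TPM. *mbo* was the higher in each library, by 1.11-fold, 3.48-fold and 1.98-fold in libraries 1, 2 and 3 (log2 ratio 0.98 ± 0.83, SD, n = 3), so the size of the gap varied widely. *Nup358*, the large Ran-binding protein of the cytoplasmic filaments, was even between libraries at 5.51, 4.70 and 6.03 TPM. *Rae1* exceeded *Nup98-96*, the gene of its binding partner, by 1.82-fold, 5.66-fold and 1.89-fold.

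In the nuclear basket, *Nup50* was at 21.9, 18.2 and 26.3 TPM, *Nup153* at 8.21, 3.51 and 7.98 TPM and *Mtor*, the fly Tpr protein that forms the basket filaments, at 4.84, 3.31 and 6.60 TPM. All 3 were lowest in library 2. *Nup153* exceeded *Mtor* by 1.70-fold, 1.06-fold and 1.21-fold, and the mean log2 ratio of 0.37 ± 0.35 (SD, n = 3) was about as large as its spread. The membrane genes *Ndc1* and *Gp210*, whose proteins anchor the pore in the nuclear envelope, were at 10.1, 11.1 and 8.80 TPM and at 8.96, 7.49 and 10.4 TPM. They were not separated by these libraries (log2 ratio 0.17 ± 0.40, SD, n = 3, exact permutation p = 0.75, adjusted p = 0.75), and without replicate 2 the ratio was -0.030.

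The 5 detected transport factors had a median of 41.0 TPM, above that of the pore genes. The ranges overlapped, with *Fs(2)Ket* (17.1 TPM) below several nucleoporins and *Nup93-1* above every transport factor. The 3 importin alpha genes differed most. Importin alpha recognises the nuclear localisation signal of a cargo and joins it to importin beta. *Kap-alpha3* (FBgn0027338, chromosome 3R from 9574484 to 9577733) was at 244, 258 and 292 TPM, a mean of 265 ± 24.9 (SD, n = 3). *Kap-alpha1* (FBgn0024889, chromosome 3L from 19807232 to 19810398) was at 43.4, 34.6 and 45.0 TPM. In each library *Kap-alpha3* exceeded *Kap-alpha1*, by 5.63-fold, 7.46-fold and 6.50-fold (mean log2 ratio 2.7 ± 0.20, SD, n = 3). It made up 86.6 ± 1.6% of importin alpha TPM (SD, n = 3).

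*Pen*, the importin alpha2 gene (listed as FBgn0267727, chromosome 2L from 10056900 to 10060095, 1 transcript), had no counts in any library, as did 41.2% of all genes in the tables. For this transcript of 2577 bases, 3 counts, the floor set here for a count of 0, would be 0.170, 0.171 and 0.171 TPM. Against that floor in each library, *Kap-alpha3* was at least 1438-fold and *Kap-alpha1* at least 202-fold higher. *Pen* RNA was thus not detectable at this depth on the transcript model the authors used, and no exon of *Pen* overlaps another gene.

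*Ran* (FBgn0020255, chromosome X from 11144852 to 11148716) was at 184, 219.3 and 219.1 TPM, a mean of 207 ± 20.5 (SD, n = 3). *Fs(2)Ket*, the importin beta gene that pairs with importin alpha, was at 18.9, 10.2 and 22.1 TPM, lowest in library 2. *Ran* exceeded it by 9.72-fold, 21.5-fold and 9.92-fold, and *Kap-alpha3* by 12.9-fold, 25.3-fold and 13.2-fold. *emb*, the fly CRM1 exportin that carries proteins with a leucine-rich export signal, was at 24.0, 17.9 and 27.2 TPM. It was above *Fs(2)Ket* in each library, by 1.27-fold, 1.75-fold and 1.23-fold (log2 ratio 0.48 ± 0.28, SD, n = 3).

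**Figure D2:**
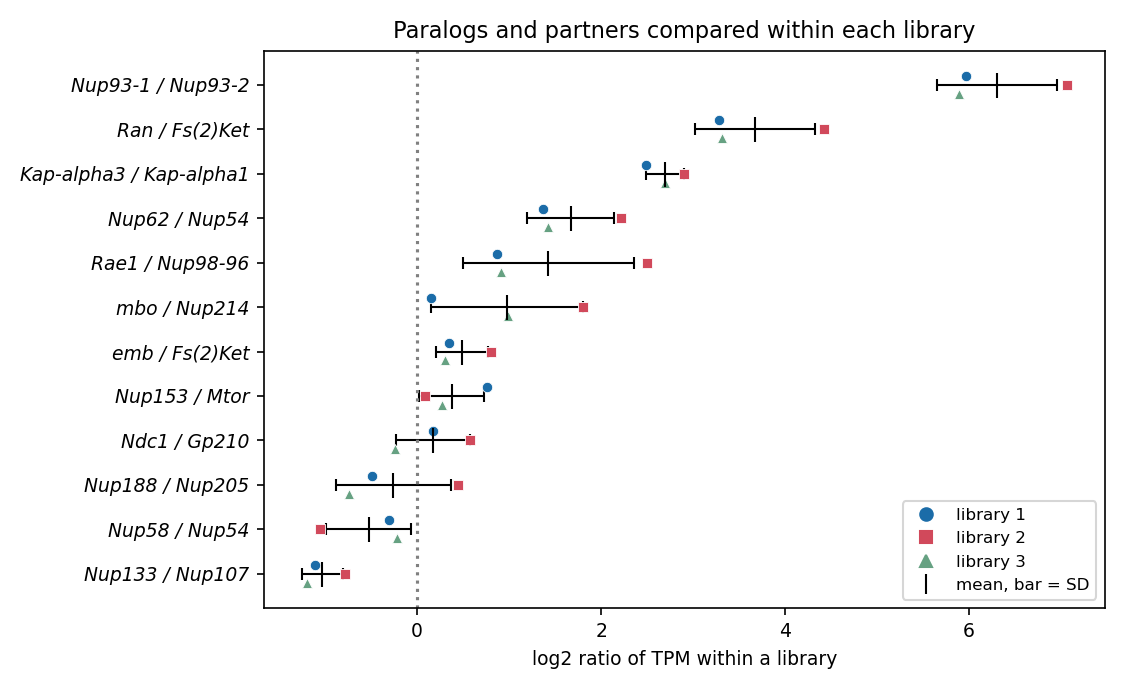
Log2 ratio of TPM within libraries 1, 2 and 3 (points) for the 12 pairs of paralogs or partners that could be tested, with the mean (tick) and SD (bar, n = 3). *Nup93-1* over *Nup93-2* (6.31), *Ran* over *Fs(2)Ket* (3.67) and *Kap-alpha3* over *Kap-alpha1* (2.7) lie far from 0, while the bars of *Ndc1* over *Gp210* and *Nup188* over *Nup205* cross it.

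The p-values are from exact permutation of the signs of the 3 within-library log2 ratios, two-sided, adjusted over the 12 pairs. Of these 10 had the same direction in 3 of 3 libraries, each with exact permutation p = 0.25 (adjusted p = 0.3). With 3 libraries this is the smallest p the test can give, so no pair could pass a threshold of 0.05. In CPM the direction turned for *emb* over *Fs(2)Ket*, *mbo* over *Nup214*, *Rae1* over *Nup98-96* and *Ndc1* over *Gp210*. Pair ratios were not adjusted for the difference with length in library 2. *Ran* over *Fs(2)Ket* (1388 and 6184 bases) was 21.5-fold there, against 9.72-fold and 9.92-fold in libraries 1 and 3. *Rae1* over *Nup98-96* (1189 and 6002 bases) was 5.66-fold there, against 1.82-fold and 1.89-fold. Also highest in library 2 were *Nup93-1* over *Nup93-2* (2786 and 2497 bases) and *Nup133* over *Nup107* (3742 and 2715 bases). The same held for all other pairs except *Nup58* over *Nup54* and *Nup153* over *Mtor*, which were lowest there. The part of length in these ratios was not tested. Both pairs with *Pen* are given only as the bounds above.

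The libraries differed for the pore and transport genes mainly in library 2 and with transcript length. Of the 33 detected genes 21 (63.6%) were lowest in library 2, against 48.3% of all detected genes, and 8 (24.2%) were highest there, against 24.7%. Highest in library 3 were 21 (63.6%), against 52.3%. Set against the mean of the other two, library 2 had a median log2 ratio of -0.35 over the 33 genes and -0.14 over all detected genes. A ratio below -1 was found for 7 of 33 (21.2%), against 11.3% of all detected genes. They were *Elys* (-1.90), *Nup205* (-1.58), *Nup98-96* (-1.36), *Nup93-2* (-1.27), *Nup58* (-1.21), *Nup153* (-1.21) and *Fs(2)Ket* (-1.01).

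Pore genes encode many long messages. Of the 33 detected genes 11 (33.3%) had transcripts over 5000 bases, against 7.55% of detected genes. All 11 had a ratio below 0 in library 2, from -1.90 to -0.30 with a median of -0.79, where the 543 detected genes of that length had a median of -0.97 and 481 of them lay below 0. The 11 members with transcripts under 2000 bases had a median of 0.12, and the 3972 detected genes of that length had 0.049. Spearman's rho between length and ratio was -0.644 over the 33 genes and -0.551 over the 7193 detected genes, given as a description, since the points share the same libraries. With each library's trend on length removed, the median was 0.15 for the 33 genes and -0.0042 for all detected genes.

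Some genes departed from the trend. *Nup58* and *Nup93-2*, with transcripts of 1820 and 2497 bases, kept ratios of -1.14 and -1.01 with the trend removed, and *Elys* kept -0.98. *Nup37* kept 0.99, *Nup133* moved from 0.21 to 0.85 and *mbo* from 0.46 to 0.75, while *Nup62*, the third highest before the trend was removed, moved from 0.40 to 0.36. The low values of *Nup58* and *Nup93-2* rested on 32 and 37 counts in library 2. Muscle and heart genes also had their lowest sum in library 2. Of their 12 detected genes 11 were lowest there, against 48.3% of all detected genes. Their part in these ratios was not tested.

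**Figure D3:**
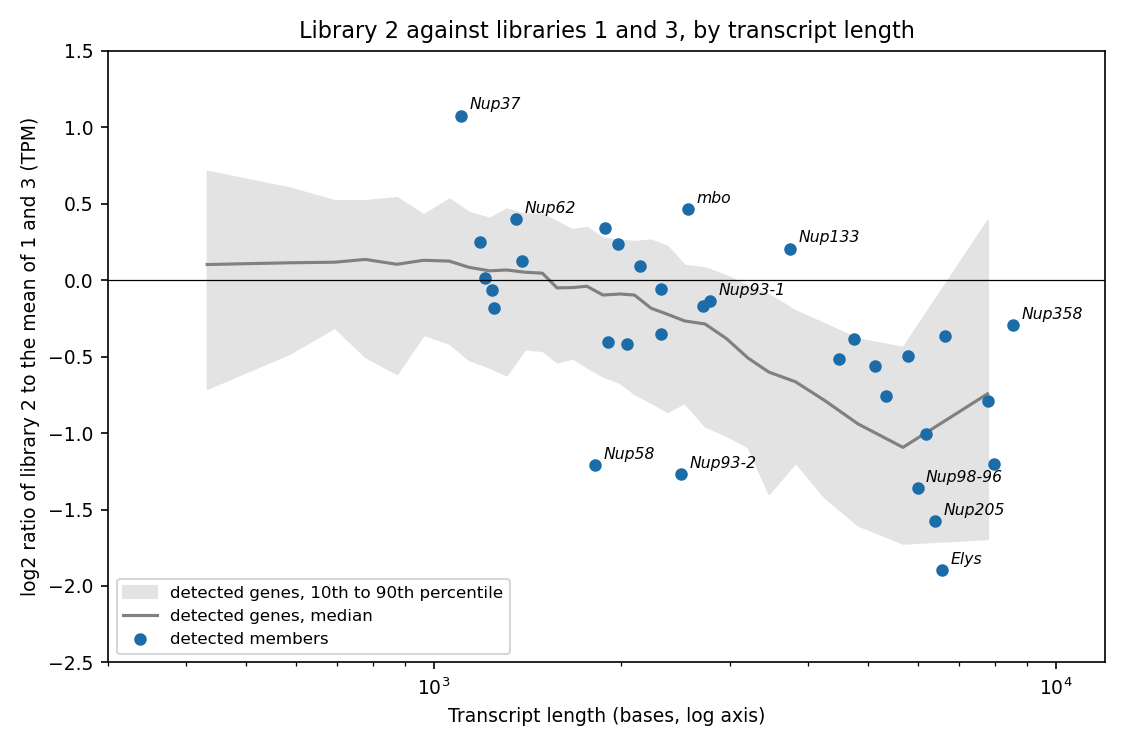
Log2 ratio of TPM in library 2 to the mean of libraries 1 and 3 against transcript length (bases, log axis) for the 33 detected pore and transport genes (blue points), over the median (grey line) and the 10th to 90th percentile (grey band) of 7193 detected genes in 30 bins of length. The blue points fall with length as the grey line does, and *Nup37*, *mbo* and *Nup133* lie above the band while *Nup58* and *Nup93-2* lie below it.

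Between the 3 libraries the median SD of log2(TPM + 1) was 0.24 for the 33 genes and 0.26 for all detected genes. The order of these values depended on the libraries used, since they were 0.15 and 0.19 without replicate 2, 0.22 and 0.24 without replicate 3, and 0.29 and 0.21 without replicate 1. The widest were *Elys* (0.73), *Nup98-96* (0.73) and *Nup205* (0.65), and the narrowest *Nup44A* (0.052), *Nup93-1* (0.091) and *Nup133* (0.12).

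Other genes of nuclear transport were taken from lists chosen by function. Of 8 genes listed under the Ran cycle and Ran carriers 6 were detected, among them *Nxt1*, which is also counted below under mRNA export. *Ntf-2*, which returns Ran to the nucleus, led at 443, 480 and 472 TPM, above *Ran* itself in every library. *Nxt1*, a small partner of the mRNA export receptor, followed at 71.7 ± 7.58 TPM, *RanBP3* at 35.7 ± 1.39 and *RanBPM* at 30.6 ± 14.7 TPM (SD, n = 3). The regulators that set the state of Ran were low, with the exchange factor *Rcc1* at 7.80, 7.82 and 6.53 TPM and the activating protein *RanGAP* at 12.1, 10.8 and 10.9 TPM. *Ran-like* had 0 counts in every library, and *Ntf-2r* had 0, 1 and 2.

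All 12 matched genes of the other importins and exportins were detected, with a median of 21.2 TPM, led by *msk*, the fly importin 7, at 59.6 ± 14.5 TPM, *Karybeta3* at 58.5 ± 22.1, *Tnpo* (transportin) at 41.2 ± 12.1 and *Cse1*, the exportin that returns importin alpha to the cytoplasm, at 26.1 ± 1.03 TPM (SD, n = 3). Of these 12 genes 9 were lowest in library 2, against 48.3% of all detected genes. The same held for 2 of 6 detected genes of the Ran list, 6 of 14 of mRNA export and 7 of 10 of the lamina and nuclear membrane. Of 17 mRNA export genes 14 were detected, led by *Hel25E* at 191 ± 19.6 TPM and *Ref1* at 144 ± 9.42, both of which load messages for export, then *Nxt1* and the export receptor *sbr* at 59.8 ± 6.48 TPM (SD, n = 3). The paralogs *nxf2* and *nxf3* did not reach 1 TPM in every library, with means of 0.48 and 0.74 TPM, and *nxf4* had 0 counts. Of 12 genes of the lamina and nuclear membrane 10 were detected. The A-type lamin gene *LamC* was at 158, 138 and 158 TPM and the B-type gene *Lam* at 18.8, 13.2 and 24.7 TPM. *baf* and *Torsin* were at 116 ± 6.74 and 107 ± 24.5 TPM and *bocks* at 34.5 ± 1.13 TPM (SD, n = 3). *LBR*, a lamin B receptor, was at 0.91, 0.91 and 1.70 TPM, and *spag4* had 0 counts.

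**Figure D4:**
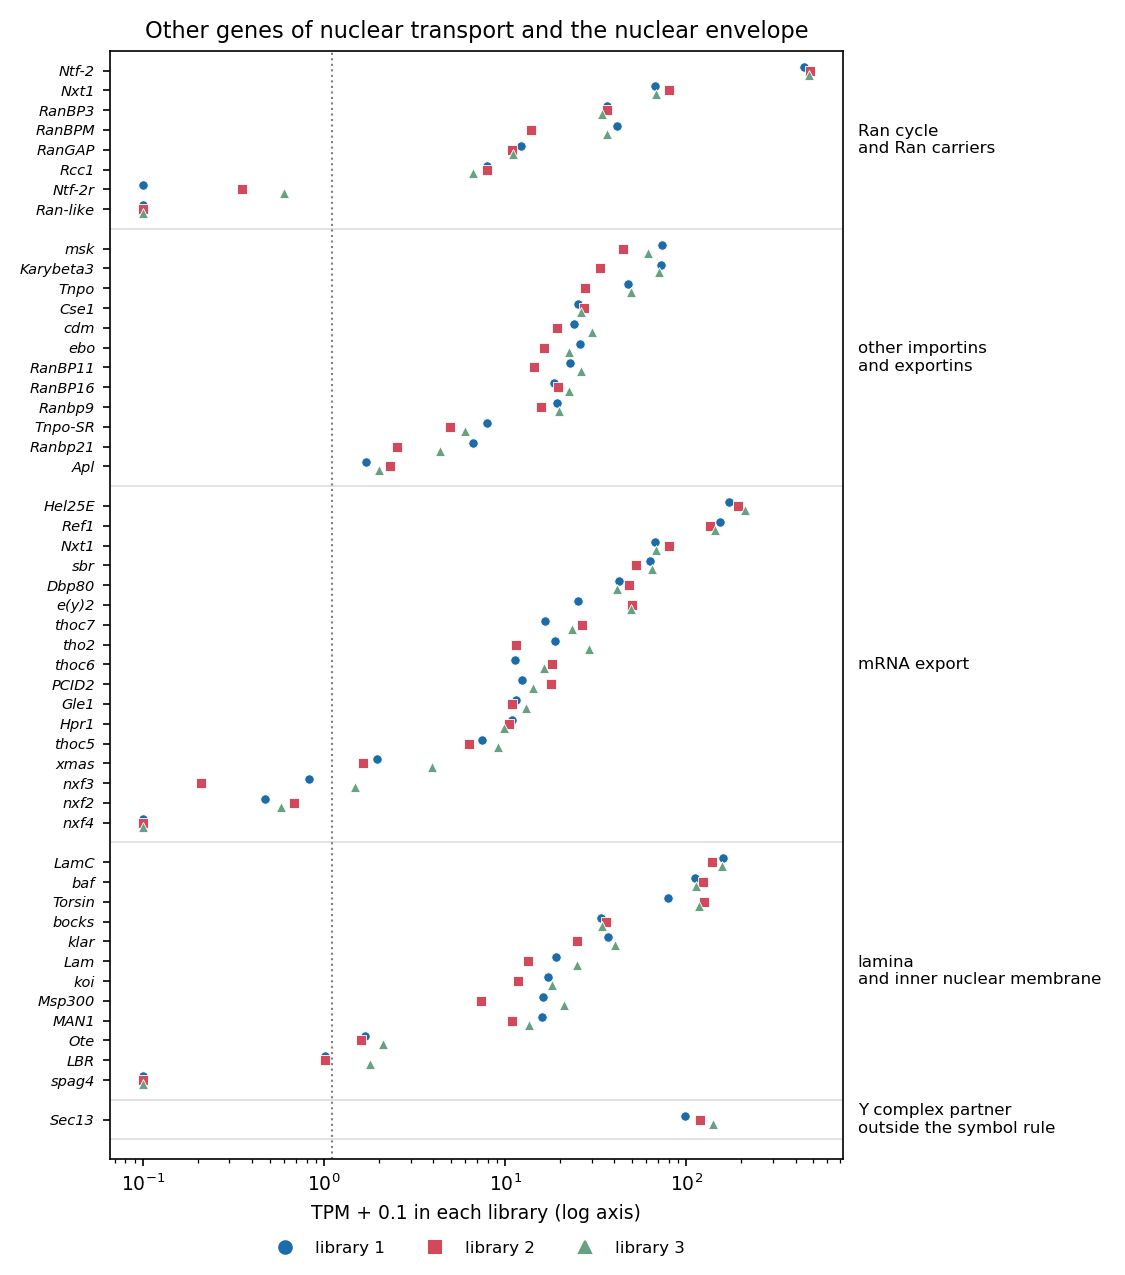
TPM + 0.1 (log axis) in libraries 1, 2 and 3 (points) of other genes of nuclear transport and the nuclear envelope, grouped by list and ordered by mean, with the detection threshold as a dotted line. *Ntf-2* (465 TPM), *Hel25E* (191 TPM), *LamC* (151 TPM) and *Sec13* (119 TPM) lead their lists, and *Ran-like*, *nxf4* and *spag4*, at 0 counts, lie at the left edge.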

How the data were processed

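RNA of sorted adult nephrocytes was sequenced in 3 control libraries. STAR 2.7.5c served the authors for mapping and RSEM 1.3.3 for quantification, on FlyBase annotation. Their strand setting is not given in the sources used here. Deposited expected counts are estimated reads for a gene, without normalization. The deposited TPM values, made by the authors with RSEM, sum to 1000000 in each library, and the deposited FPKM values were used only as an alternative. The deposited transcript lengths, an average over isoforms, are other values. Of 17768 IDs, 17671 were named from a gene name table, 56 by transcript from Ensembl annotation of BDGP6 (release 115), and 41 stayed unnamed. The Ensembl annotation also gave coordinates and exon overlaps, and is not the FlyBase annotation on which the authors counted reads. Of the listed genes only *arts* was not matched.

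Levels are means and SD of TPM over 3 libraries. The study describes separate collections of flies. Pairs were compared within libraries by an exact sign-flip test with Benjamini-Hochberg adjustment. The trend on length was a lowess fit (fraction 0.3). Size factors came from edgeR 4.0.16 and DESeq2 1.42.0 on expected counts rounded to whole numbers, at least 10 in every library. Counts differed between libraries beyond sampling noise (chi-square over its degrees of freedom from 33.0 to 80.3), so none was a repeated deposit. Alternatives were CPM, FPKM, other thresholds and scalings, TPM without mitochondrial and ribosomal RNA genes, and each replicate left out. Procedures were tested on simulated data, the size factors on data without a trend on length. Python 3.11.15, statsmodels 0.14.6 and R 4.3.3 were used. Genes and lists were chosen with earlier results of these data known. Values in each library are given for members of the pairs, for the highest and lowest gene of each part of the pore, for genes below 1 TPM, and for the 3 widest, narrowest, lowest and highest in library 2. Of each further list the 4 highest genes and those below 1 TPM are named. Other genes were named after their values were seen. No sequences are shown.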

Additional observations from a re-analysis of the deposited data

How the results depend on the processing

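Of the 34 genes, 33 were detected at 1 TPM, 33 without any 1 replicate and 14 at 10 TPM. CPM, which is not corrected for transcript length, raised the median of each structural group against that of all detected genes. On the log2 scale it moved from -1.12 to -0.70 for the outer ring, -1.76 to -0.35 for the inner ring, -1.09 to -0.11 for the cytoplasmic face, -1.76 to 0.069 for the nuclear basket, -1.13 to 0.086 for membrane genes and 0.98 to 1.58 for transport factors. Transport factors were at 0.62 with *Pen* included and between 0.97 and 1.09 with 1 replicate left out, and channel genes, at -1.61, between -1.63 and -1.48. In CPM *Nup93-1* exceeded the median of the other nucleoporins 30.8-fold, an alternative chosen after seeing the data, against 39.9-fold in TPM. Of 96 alternatives for pair ratios 91 kept their direction. In CPM the log2 ratio of *emb* to *Fs(2)Ket* was -5.4e-05, of *mbo* to *Nup214* -0.15, of *Rae1* to *Nup98-96* -1.18 and of *Ndc1* to *Gp210* -1.71, and the last was -0.030 to 0.37 with 1 replicate left out. The median ratio of library 2 over members, -0.35, was -0.13 with TMM, -0.15 with DESeq2 size factors, -0.10 at 10 TPM and 0.15 with the trend on length removed. TMM and DESeq2 moved all detected genes from -0.14 to 0.030 and 0.0097. The median SD, 0.24 against 0.26 for all detected genes, ran from 0.15 against 0.19 (without replicate 2) to 0.29 against 0.21 (without replicate 1). Of 68 alternative ranks 27 moved, all in CPM. Of 170 alternative mean levels 14 moved by more than their SD, all without mitochondrial and ribosomal RNA genes. In that setting *Nup93-1* moved from 311 to 364 TPM, *Kap-alpha3* from 265 to 309 and *Ran* from 207 to 243. No paired analysis was possible because the labels give 1 group. Depth limits *Pen*, at 0 counts, most, and among detected members *Nup37*, at 17 counts in library 1.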
